A study of Mus musculus with 8 samples.

Results

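Scn4b and 6 other genes for subunits of the voltage-gated sodium channels of brain (Scn2b, Scn3b, Scn8a, Scn1a, Scn2a and Scn3a) were followed in the striatum of mice with a Huntington's disease mutation. The members are every probe set of the array, a group of short probes for 1 transcript region, that the platform annotation assigns to exactly 1 gene with such a symbol. The rule found all 7 of these genes among the 18193 that the array measures by such probe sets, in 20 of the 45037 probe sets that are not controls, between 1 for Scn4b and 5 for Scn8a. The mice were 4 CHL2 mutants (141, 153 and 154, female, and 191, male) and 4 wild-type mice (161, female, and 170, 180 and 200, male), all 22 months old and of the strain C57BL/6 X CBA F1 hybrid. CHL2 mice carry a tract of 150 CAG repeats, taken from human exon 1, in their own Htt gene, here on both copies (Q150/Q150). Each mouse gave 1 Affymetrix mouse genome array of total RNA from striatum, so the number of arrays limits the precision of every value. Levels are RMA values on the log2 scale, and the comparison asks how these subunits differ between old mutant and wild-type striatum.

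Voltage-gated sodium channels carry the rising phase of the action potential. Each consists of a large alpha subunit that forms the pore, here encoded by Scn1a, Scn2a, Scn3a or Scn8a, and of smaller beta subunits that cross the membrane once, carry an immunoglobulin-like domain outside the cell, and shape gating and cell surface placement. The products of Scn2b and Scn4b bind the alpha subunit through a disulfide bond, whereas that of Scn3b binds without it. The short inner tail of the Scn4b product can block the open pore and is linked to resurgent sodium current, which favours repeated firing, and Scn4b is abundant in the medium spiny neurons of the striatum.

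Scn4b and Scn2b, the only members with a probe set past the threshold below, are neighbours on chromosome 9, with no other gene that has a probe set between them. Their promoter windows, 250 bases before to 50 after the gene's start, are shown because each gene had a probe set that passed as lower. For Scn2b this was 1 of 3 probe sets. They come from RefSeq (GRCm38.p6), the Scn4b window at chr9:45138374-45138673 and the Scn2b window at chr9:45117626-45117925, both on the plus strand. Capitals mark matches to any of 6 motifs on either strand.
Scn4b: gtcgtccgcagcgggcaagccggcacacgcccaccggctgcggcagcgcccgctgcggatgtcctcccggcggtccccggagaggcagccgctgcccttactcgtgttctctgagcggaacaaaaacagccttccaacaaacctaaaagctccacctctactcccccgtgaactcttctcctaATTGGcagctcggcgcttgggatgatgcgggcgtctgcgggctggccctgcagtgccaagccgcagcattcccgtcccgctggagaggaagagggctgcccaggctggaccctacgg
Scn2b: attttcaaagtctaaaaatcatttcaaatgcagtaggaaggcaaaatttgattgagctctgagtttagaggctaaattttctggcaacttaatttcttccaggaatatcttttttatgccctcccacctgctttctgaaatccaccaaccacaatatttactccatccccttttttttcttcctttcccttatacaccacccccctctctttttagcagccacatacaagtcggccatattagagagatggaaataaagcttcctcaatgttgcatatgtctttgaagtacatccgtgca
The Scn4b window had a G and C content of 66.3%, above that of 84.4% of the 32851 windows in the table, and the Scn2b window had 38.3%, above 7.45% of windows. The motifs searched were the GC box (GGGCGG), the CCAAT box (its own letters), the TATA box (TATAAA), the cAMP response element (TGACGTCA), the E-box (CACGTG) and a binding motif of EGR factors (GCGNGGGCG), the GC box and EGR motifs being able to overlap. The Scn4b window held 1 match, to CCAAT on the minus strand, a motif found in 37.4% of all windows. The Scn2b window held 0 matches to the 6 motifs. Windows were listed for 5 of the 7 genes, and Scn3a and Scn3b had no entry. Of the other 5 member windows, 1 of Scn2a held the TATA box (13.6% of all windows), that of Scn1a the CCAAT box, and 1 of Scn8a the EGR motif (5.55% of all windows). The GC box was in 35.7% of all windows, the E-box in 7.15% and the cAMP response element in 1.79%, and a match is one of letters only.

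Before the results, 1 array needs mention. The control probe sets for Gapdh differed between their 3' and 5' ends by 1.37 on the log2 scale in wild-type mouse 170, against 0.32 to 0.43 in the CHL2 mice and 0.32 to 0.34 in the other 3 wild-type mice. For beta-actin it was 2.65, against 1.23 to 1.51 in CHL2 mice and 1.36 to 1.43 in the other wild-type mice. Of all probe sets, 275 lay more than 1 log2 unit below every other wild-type mouse in this array, and 2 to 9 did so within their group in each of the other 7 arrays. The group means of these control differences were not separated (two-sided exact permutation p = 0.83 for Gapdh and 0.49 for beta-actin, 4 against 4 mice). The values of mouse 170 dominate both tests, so they cannot show that RNA quality was alike in the groups. Array medians lay between 4.95 and 4.98. Mouse 170 lay more than 1 log2 unit below the mean of the other wild-type mice in 3 member probe sets. Their results are given with and without it. The striatal marker Ppp1r1b, a phosphatase inhibitor gene of dopamine signalling, was bright in all 8 mice. It stood at 11.06 ± 0.13 in CHL2 and 12.12 ± 0.12 in wild-type mice (SD, n = 4 each). Htt, the mutated gene, stood at 7.28 ± 0.16 in CHL2 and 7.86 ± 0.07 in wild-type mice (log2 change -0.67, adjusted p = 0.00281), a probe set whose place relative to the changed exon was not analysed here.

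Scn4b was far lower in the mutants, and its change was the largest among the 20 member probe sets. Its probe set 1434008_at read 9.70, 9.55, 9.67 and 10.03 in CHL2 mice 141, 153, 154 and 191, against 12.14, 12.51, 12.42 and 12.63 in wild-type mice 161, 170, 180 and 200. The groups did not overlap, and even the highest mutant, 191, lay far below the lowest wild-type mouse, 161. The means were 9.74 ± 0.20 in CHL2 and 12.42 ± 0.21 in wild-type mice (SD, n = 4 each). In the limma fit with genotype and sex, which was adjusted over all 45037 probe sets by the Benjamini-Hochberg method, Scn4b fell by 2.49 on the log2 scale (SE 0.09, 95% interval -2.69 to -2.29, adjusted p = 5.6e-06), a 5.63-fold lower level. Only 5 of all probe sets had a lower log2 change, and 0 had a lower unadjusted p.

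Each sex holds 1 mouse in 1 of the groups, so a difference of the Scn4b change between the sexes could hardly be tested. The mean of the female mutants lay below the female wild-type mouse by a log2 difference of -2.49, and the male mutant lay below the mean of the male wild-type mice by a log2 difference of -2.49. The interaction of genotype and sex had an unadjusted p = 0.981 in limma, which does not show that the changes are equal. Its interaction test called 0 of 45037 probe sets at an adjusted p under 0.05 (1818 at an unadjusted p under 0.05), and the lowest unadjusted p among the 20 members was 0.31. With each mouse left out in turn the log2 change of Scn4b stayed between -2.52 and -2.47. In bulk tissue, fewer cells of a type and less RNA per cell cannot be told apart.

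Among the 20 member probe sets, 2 passed an adjusted p under 0.05 (10.0%), both lower in CHL2, where 6.70% of all probe sets passed, 3.44% as lower and 3.26% as higher. The groups did not overlap for 5 of the 20 (25.0%), 4 lower and 1 higher in CHL2, where 15.4% of all probe sets did not overlap, 7.07% lower and 8.34% higher. With 20 members the shares in either direction lie near their background. Both calls and 4 of the 5 gaps were lower, above the lower shares of all probe sets, and this was not tested. The median log2 change was -0.04 over the members and 0.0031 over all probe sets. At an unadjusted p under 0.05, 3 members passed. All 8 values of 3 members lay under 5, the log2 of 32, where signal is near background: 1457144_at of Scn2b, 1442208_at of Scn8a and 1421705_at of Scn3a. The other 17 also lay above the median level of all probe sets.

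**Figure D1:**
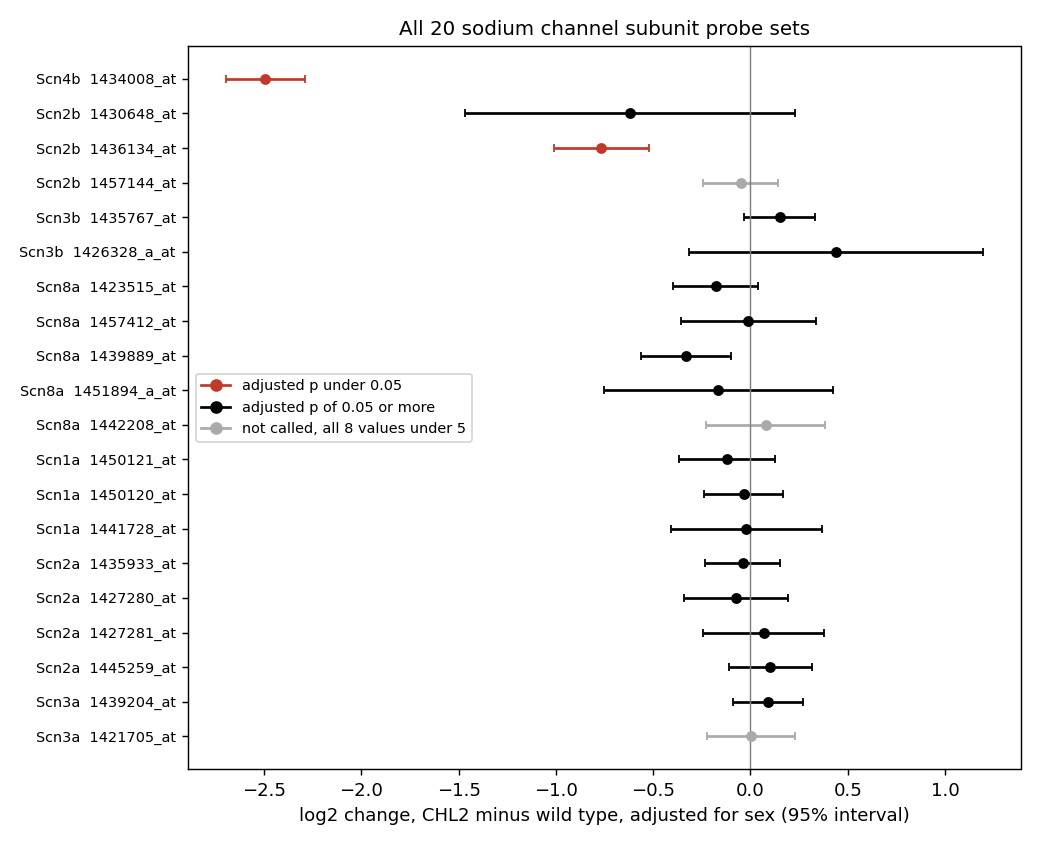
Log2 change (CHL2 minus wild type, adjusted for sex) of all 20 member probe sets, with bars for the 95% interval. Scn4b at -2.49 and Scn2b 1436134_at at -0.77 passed, and most other intervals include 0.

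Scn2b, the other beta subunit gene linked to the alpha subunit by a disulfide bond, was lower in the mutants in 1 of 3 probe sets. Probe set 1436134_at read 9.82, 9.86, 9.72 and 9.54 in CHL2 mice 141, 153, 154 and 191, against 10.49, 10.54, 10.44 and 10.18 in wild-type mice 161, 170, 180 and 200. Every mutant lay below every wild-type mouse, and it fell by 0.77 on the log2 scale (SE 0.11, 95% interval -1.01 to -0.52, adjusted p = 0.00301), 1.70-fold lower. Without CHL2 mouse 191 the log2 change was -0.69 with an adjusted p = 0.0819 (-0.61 and 0.00608 when sex was left out too). Mice 191 and 161 are each the single animal of their sex in their group, so fits without either rest on 1 mouse against 3.

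The brightest Scn2b probe set, 1430648_at, did not pass with all mice. It read 10.61, 10.82, 10.80 and 10.92 in CHL2 mice 141, 153, 154 and 191, against 11.69, 10.10, 11.68 and 11.83 in wild-type mice 161, 170, 180 and 200. The value of wild-type mouse 170 was below all mutants, while the other 3 wild-type mice were above them. With all mice the log2 change was -0.62 (95% interval -1.47 to 0.23, adjusted p = 0.446). Without mouse 170 it was -0.90 (adjusted p = 0.00114), and the wild-type mean was 11.74 ± 0.08 (SD, n = 3), against 10.79 ± 0.13 in CHL2 mice (SD, n = 4). Mouse 170 gave the array whose control differences were raised, and their part in this value was not tested. In probe set 1436134_at the same mouse was the highest of the wild-type group.

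**Figure D2:**
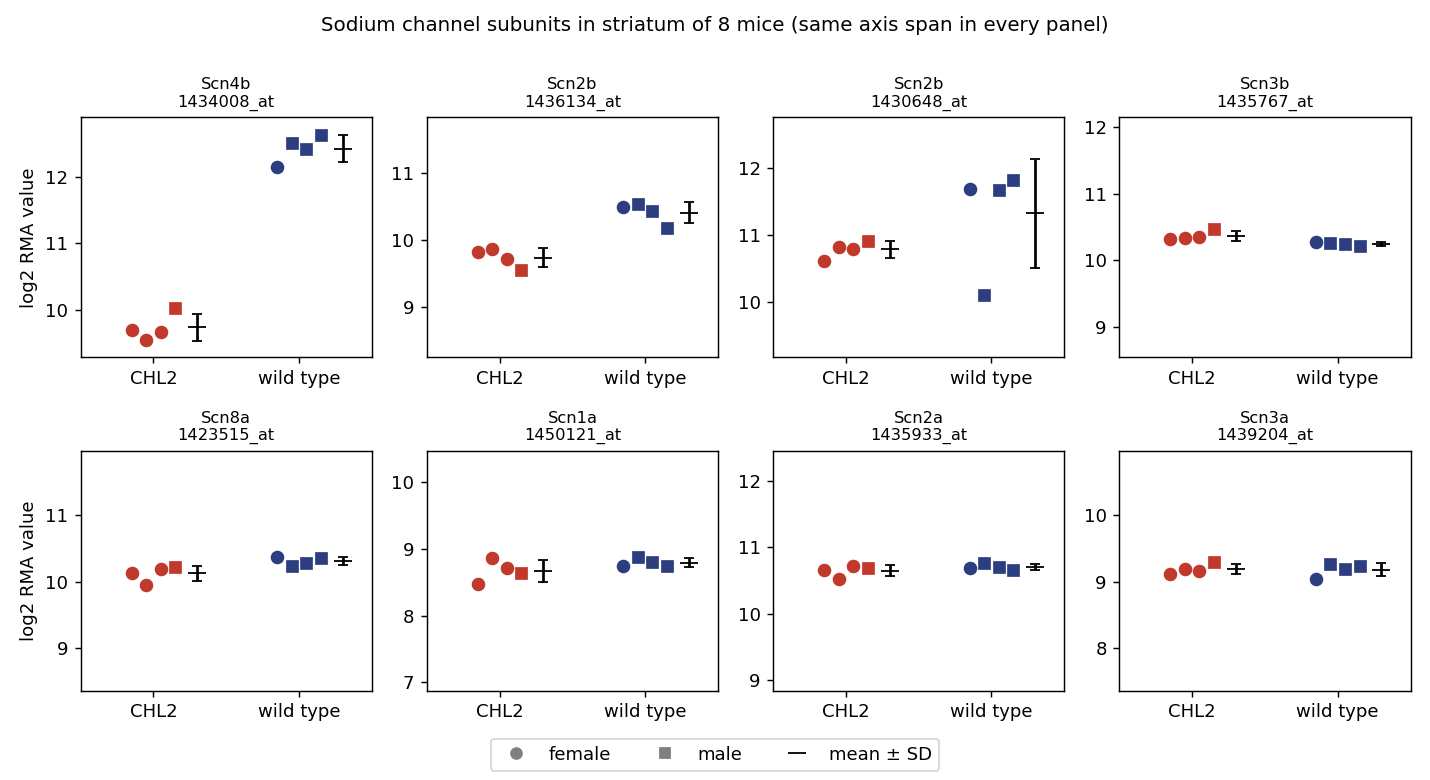
Log2 RMA values of each mouse for the brightest probe set of every gene and for Scn2b 1436134_at, CHL2 to the left of wild type in each panel, with mean ± SD (n = 4) and the same axis span throughout. Scn4b separates the groups widely and Scn2b 1436134_at less so, and Scn2b 1430648_at has wild-type mouse 170 at 10.10, below all mutants.

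Scn3b, the beta subunit gene whose product binds without a disulfide bond, did not pass in either of 2 probe sets. Probe set 1435767_at read 10.32, 10.33, 10.34 and 10.47 in CHL2 mice, against 10.27, 10.26, 10.24 and 10.21 in wild-type mice, in the order used above. All mutants were above all wild-type mice, but the gap was small and the log2 change of 0.15 had a 95% interval of -0.03 to 0.33 (adjusted p = 0.374). The dimmer 1426328_a_at read 6.06, 5.96, 5.76 and 5.99 in CHL2 mice, against 5.85, 4.26, 5.82 and 5.49 in wild-type mice. Wild-type mouse 170 was again the low value, and the log2 change of 0.44 (adjusted p = 0.568) was 0.20 without it (adjusted p = 0.455).

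Scn8a encodes the alpha subunit typical of the axon initial segment and nodes of Ranvier, and 0 of its 5 probe sets passed in limma (1 at an unadjusted p under 0.05). Probe set 1439889_at read 8.30, 7.94, 8.17 and 8.35 in CHL2 mice, against 8.51, 8.60, 8.67 and 8.68 in wild-type mice. The groups did not overlap, and the log2 change was -0.33 (95% interval -0.56 to -0.10, adjusted p = 0.0991), which passed when sex was left out of the fit (log2 change -0.42, adjusted p = 0.0228). The brightest probe set, 1423515_at, read 10.13, 9.96, 10.20 and 10.22 in CHL2 mice, against 10.37, 10.24, 10.28 and 10.36 in wild-type mice. These groups also did not overlap, though mutant 191 and wild-type 170 were nearly level, and the log2 change was -0.18 (95% interval -0.40 to 0.04, adjusted p = 0.378).

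The other Scn8a probe sets differed among themselves. Probe set 1451894_a_at read 7.32, 7.44, 7.44 and 7.16 in CHL2 mice, against 7.72, 6.40, 7.52 and 7.58 in wild-type mice. Mouse 170 was the lowest of all 8, and the other wild-type mice were above all mutants. Its log2 change was -0.17 with all mice (adjusted p = 0.824), -0.36 without mouse 170 (adjusted p = 0.0424), and -0.27 without that mouse and without sex in the fit (adjusted p = 0.14). Probe set 1457412_at had a log2 change of -0.01 (95% interval -0.36 to 0.34), and 1442208_at, near background, one of 0.08. Which transcript regions of Scn8a these probe sets cover was not analysed here.

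**Figure D3:**
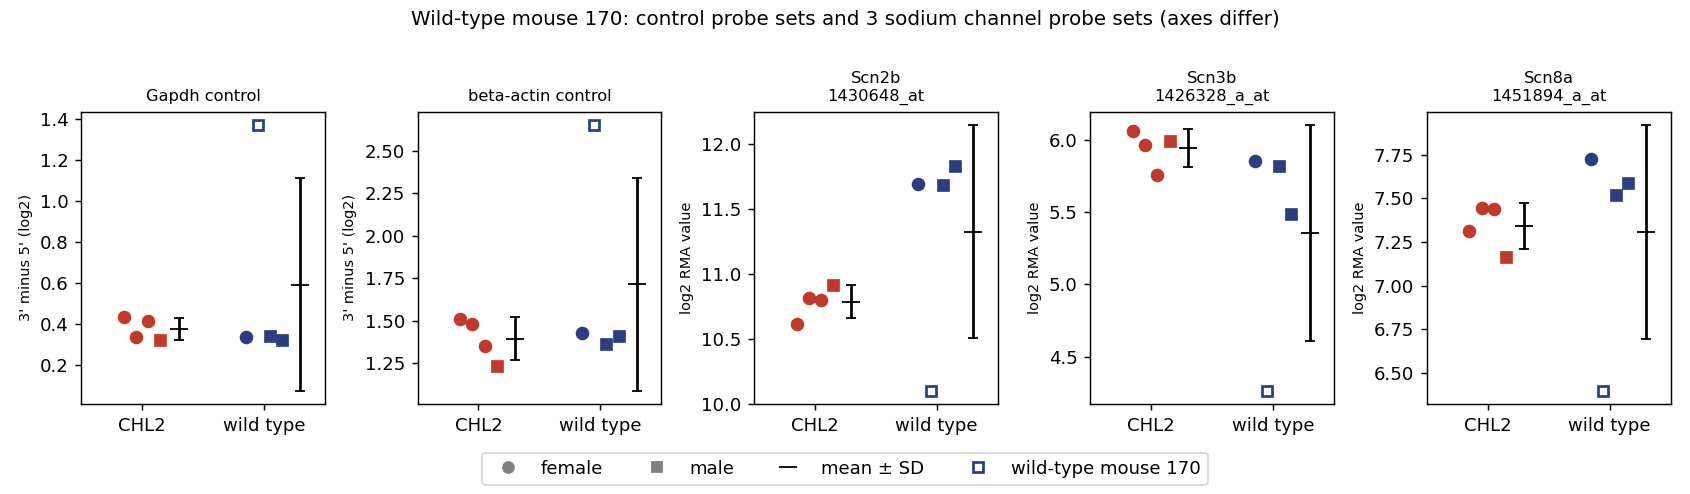
The 3' minus 5' log2 difference of the Gapdh and beta-actin controls, and log2 values of 3 sodium channel probe sets, in CHL2 (left) and wild-type mice (right), with mean ± SD (n = 4). The 3 probe sets were picked because wild-type mouse 170 lay more than 1 log2 unit below the mean of the other wild-type mice. Its low place among wild-type mice there was thus fixed by the choice. Mouse 170, the open square, is the highest of 8 for both controls (1.37 and 2.65). It is the lowest of 8 for all 3 probe sets (10.10, 4.26 and 6.40).

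The alpha subunit genes Scn1a, Scn2a and Scn3a showed no change that passed. Scn1a is prominent in fast-spiking interneurons, Scn2a in principal and medium spiny neurons, and Scn3a in the developing brain. Their 9 probe sets had log2 changes between -0.12 and 0.10, adjusted p between 0.63 and 0.994, and 95% intervals that reached from -0.41 to 0.38 at the widest. The brightest Scn1a probe set, 1450121_at, read 8.47, 8.87, 8.71 and 8.64 in CHL2 mice, against 8.74, 8.88, 8.81 and 8.75 in wild-type mice. The groups overlapped, and its log2 change was -0.12 (95% interval -0.37 to 0.13).

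The brightest Scn2a probe set, 1435933_at, read 10.66, 10.53, 10.72 and 10.68 in CHL2 mice, against 10.69, 10.77, 10.71 and 10.66 in wild-type mice. The values were interleaved, and the 95% interval of the log2 change, -0.23 to 0.15, leaves room for only small differences in this probe set. The intervals of 1427280_at (-0.34 to 0.20) and 1427281_at (-0.24 to 0.38) were wider. For Scn3a, 1439204_at read 9.12, 9.20, 9.17 and 9.29 in CHL2 mice, against 9.04, 9.27, 9.19 and 9.24 in wild-type mice, again overlapping (log2 change 0.09, 95% interval -0.09 to 0.27). The remaining probe sets of Scn1a (1450120_at and 1441728_at) and Scn2a (1427280_at, 1427281_at and 1445259_at) had log2 changes of -0.03, -0.02, -0.07, 0.07 and 0.10. Wild-type mouse 170 was the lowest of all mice for 1441728_at, 1427280_at and 1427281_at. Without it their log2 changes were -0.13, -0.13 and -0.01, and none passed.

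The change of Scn4b differed from that of each other member. For this comparison the log2 value of the other gene's brightest probe set was subtracted from that of Scn4b in each mouse, and only the change of this difference between the groups has a meaning. Scn4b minus Scn2b ran from -1.26 to -0.89 in CHL2 and from 0.44 to 2.41 in wild-type mice, the widest spread, with mouse 170 at the top. Without mouse 170 the shift between the groups was -1.70. Scn4b minus Scn3b ran from -0.77 to -0.44 in CHL2 and from 1.87 to 2.41 in wild-type mice. With all mice and no term for sex, the shift between the groups was -2.14 against Scn2b, -2.49 against Scn8a, -2.56 against Scn1a, -2.62 against Scn2a, -2.69 against Scn3a and -2.81 against Scn3b. Adjusted for sex, an alternative chosen after seeing the data and given without a test, it was -1.87 against Scn2b, -2.31 against Scn8a, -2.37 against Scn1a, -2.45 against Scn2a, -2.58 against Scn3a and -2.64 against Scn3b. The groups did not overlap in any of the 6 comparisons without the sex term. Each had a two-sided exact permutation p = 0.0286 over 70 assignments of the 4 and 4 mice, and 0.0286 after adjustment over the 6. That is the smallest p this design can give. All 6 comparisons share the Scn4b values, whose groups lie far apart, so they largely restate that gap and are not 6 separate results.

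Markers of medium spiny neurons, which make up most striatal neurons, fell as well. Of 13 measured genes of that list, 12 were lower and 0 higher in CHL2, with a median log2 change of -1.10, where 4.73% of all genes were called lower and 4.54% higher and the median over all genes was 0.0052. Penk, the enkephalin precursor, fell by 1.63 on the log2 scale, Rgs9, a regulator of G protein signalling, by 1.54, Adcy5, an adenylyl cyclase, by 1.45, and the dopamine receptor gene Drd2 by 1.42. The adjusted p of these 4 lay between 2.85e-05 and 0.000119. The 95% interval of the log2 change of Penk, the largest fall of the list, was -1.83 to -1.42, against -2.69 to -2.29 for Scn4b. Ppp1r1b fell by 1.01. The mean log2 level of the list ran from 10.03 to 10.26 in CHL2 and from 11.27 to 11.36 in wild-type mice, and its part in the level of Scn4b was not tested. Outside the naming rule, the calls of Foxp1 and Pdyn were lost without CHL2 mouse 191. Without wild-type mouse 161, those of Foxp1, Pdyn and Rarb were lost. The calls of Pdyn and Rarb were also lost without moderation, and that of Pdyn with values floored at log2 of 32. The list was drawn up with earlier results of these data known.

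Genes that mark neurons in general were not lower as a list. Of 14 measured, 4 were higher and 0 lower in CHL2, where 4.54% of all genes were called higher and 4.73% lower. The median log2 change of the list was 0.20. Stmn2, a microtubule regulator, rose 2.05-fold, Uchl1, a ubiquitin hydrolase, 1.47-fold, Syp, a synaptic vesicle protein gene, 1.48-fold and Gap43, a growth cone protein gene, 1.30-fold. Rbfox3, the gene for the nuclear marker NeuN, had a log2 change of -0.24 (adjusted p = 0.14). Every mutant lay below every wild-type mouse for Rbfox3, as for 7.07% of all probe sets. The mean level of the list ran from 10.49 to 10.70 in CHL2 and from 10.19 to 10.40 in wild-type mice. The count of rises was 2 without CHL2 mouse 154, 0 without CHL2 mouse 191, 1 without wild-type mouse 161, 2 without wild-type mouse 180 and 2 without wild-type mouse 200. It was 1 without moderation, and as the mean of its probe sets Syp had a log2 change of 0.20 (adjusted p = 0.392). The count of falls was 1 with a trended and robust prior, with the mean of probe sets, and without wild-type mouse 170 and sex.

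Genes listed as markers of other neurons were counted against the 9.27% of all genes called in either direction. Of 13 interneuron markers, 1 was lower, Nos1 (1.35-fold), and 0 were higher. The mean level of the list ran from 7.89 to 8.06 in CHL2 and from 8.05 to 8.12 in wild-type mice. Gad1 and Gad2, outside the naming rule and the brightest of the 13, stood at 11.97 and 11.15 in wild-type mice. Which cells gave their signal was not tested. Of 8 cortical neuron markers, 2 were lower, Nrgn (1.43-fold) and the dim Fezf2 (1.59-fold). The mean level of the list ran from 6.25 to 7.44 in CHL2 and from 6.74 to 7.40 in wild-type mice. Nrgn, the brightest of the 8, stood at 11.90 in wild-type mice, and which cells gave its signal was not tested. The changes of the cortical list reached from -1.45 to -0.15 on the log2 scale, with a median of -0.41, and the largest did not pass. None of these 3 calls held without CHL2 mouse 191. Without wild-type mouse 161 the counts were 0 interneuron and 1 cortical markers lower, and without wild-type mouse 180 also 0 and 1. Without CHL2 mouse 141, 1 interneuron marker was higher and 1 cortical marker lower, and without CHL2 mouse 154, 4 cortical markers were lower. With sex left out the log2 change of Fezf2 was -0.39 with an adjusted p = 0.277, and the counts were 2 interneuron and 1 cortical markers lower. Without moderation both counts were 0.

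**Figure D4:**
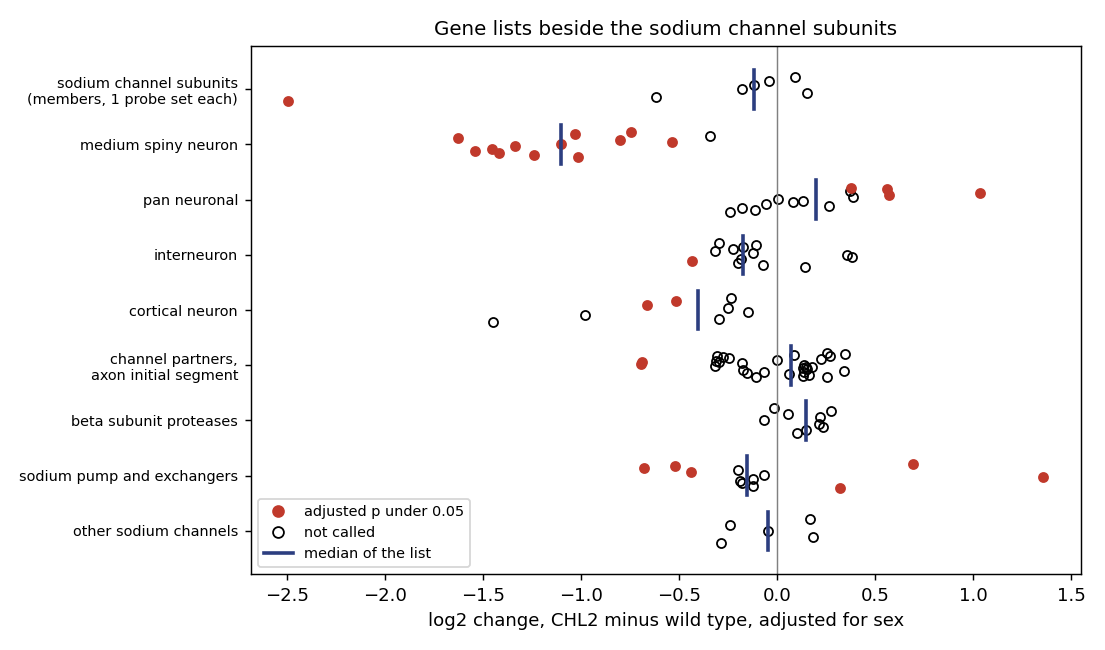
Log2 change of each gene (brightest probe set, CHL2 minus wild type, adjusted for sex) in the sodium channel members and 8 other lists, filled where the adjusted p was under 0.05, with a bar at the list's median. Scn4b at -2.49 lies outside the range of the medium spiny neuron markers, whose median is -1.10.

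Partners of the channels were called at a share near that of all genes. The list held 30 measured genes for proteins that anchor, modify or bind sodium channels, including those of the axon initial segment where spikes start. Of these, 2 were lower and 0 higher, with a median log2 change of 0.07. Over all genes, 4.73% were called lower and 4.54% higher. Nedd4l, a ubiquitin ligase that lowers the number of channels at the surface, read 9.09, 9.07, 9.19 and 9.21 in CHL2 mice, against 9.75, 9.76, 9.99 and 10.14 in wild-type mice. The groups were clearly apart, and it was 1.62-fold lower (adjusted p = 0.00504). Sntb2, a syntrophin that links membrane channels to the cytoskeleton, stood at 6.89 ± 0.02 in CHL2 and 7.58 ± 0.14 in wild-type mice (SD, n = 4 each), 1.61-fold lower (adjusted p = 0.0032). With the mean of its probe sets the log2 change of Sntb2 was -0.17 (adjusted p = 0.129). Without CHL2 mouse 191 or without wild-type mouse 161 the count was 0, and 4 were lower without mouse 191 when sex was left out.

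Ank3, which encodes the ankyrin that gathers sodium channels at the initial segment, and Fgf14, which encodes a channel-binding factor, did not pass. Ank3 stood at 12.11 ± 0.19 in CHL2 and 12.30 ± 0.09 in wild-type mice, with a 95% interval of the log2 change of -0.35 to 0.14. Fgf14 stood at 9.02 ± 0.30 in CHL2 and 9.47 ± 0.16 in wild-type mice, with a 95% interval of -0.66 to 0.02 (SD, n = 4 each). Of 9 measured genes for the proteases that cleave beta subunits, 0 passed in limma (2 at an unadjusted p under 0.05). Over all genes, 9.27% were called in either direction. The median log2 change of the 9 protease genes was 0.14. Among them Bace1, the beta secretase, stood at 9.26 ± 0.09 in CHL2 and 9.15 ± 0.08 in wild-type mice (95% interval -0.11 to 0.31).

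Genes that move sodium back out of the cell or exchange it for other ions went both ways. Of 12 measured, 3 were higher and 3 lower in CHL2, where 4.54% of all genes were called higher and 4.73% lower. The median log2 change of the list was -0.15. Fxyd7, a brain regulator of the sodium pump, read 8.15, 7.94, 8.09 and 7.66 in CHL2 mice, against 6.70, 6.33, 6.42 and 6.18 in wild-type mice, and rose 2.56-fold (adjusted p = 0.000101). Every mutant was well above every wild-type mouse. Of the sodium, calcium and potassium exchanger genes, Slc24a3 rose 1.62-fold (adjusted p = 0.00365) and Slc24a2 was 1.44-fold lower (adjusted p = 0.0154), and the sodium and proton exchanger gene Slc9a5 was 1.60-fold lower (adjusted p = 0.00756). The other two calls, outside the naming rule, were a rise of the pump subunit gene Atp1b1 (1.25-fold) and a fall of the exchanger gene Slc8a2 (1.36-fold). Of the fits that left out 1 mouse, the call of Atp1b1 held only without CHL2 mouse 153, and that of Slc8a2 only without CHL2 mouse 153 or wild-type mouse 170. As means of probe sets their log2 changes were 0.13 (adjusted p = 0.333) and -0.34 (adjusted p = 0.168). Without CHL2 mouse 191, 1 of the list was higher and 0 lower, without wild-type mouse 161, 1 was higher and 1 lower, and without moderation 1 was lower.

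Of other sodium channel genes, Scn7a, Scn9a, Scn10a, Scn11a and the leak channel gene Nalcn were measured, and 0 passed in limma (1 at an unadjusted p under 0.05). Over all genes, 9.27% were called in either direction. All 8 values of each of Scn7a, Scn9a, Scn10a and Scn11a lay under 5. Nalcn stood at 9.73 ± 0.07 in CHL2 and 9.59 ± 0.06 in wild-type mice (SD, n = 4 each), with a log2 change of 0.17 (adjusted p = 0.35).

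The genes beside Scn2b and Scn4b did not pass. The 3 nearest with a probe set on each side were Cd3e, Mpzl2, Mpzl3, Tmprss4, Il10ra and Tmprss13, with log2 changes between -0.22 and 0.07 and adjusted p between 0.356 and 0.977. All values of 4 of them, Mpzl2, Tmprss4, Il10ra and Tmprss13, lay under 5, so a fall there could hardly be seen. Around Scn3a, Scn2a and Scn1a on chromosome 2, Csrnp3, the next gene after Scn2a on the side of Scn1a, which encodes a nuclear protein, stood at 8.94 ± 0.10 in CHL2 and 8.32 ± 0.09 in wild-type mice (SD, n = 4 each). It rose 1.58-fold (adjusted p = 0.00279), while Scn2a and Scn1a had log2 changes of -0.04 and -0.12. The microtubule-severing gene Fign rose 1.57-fold at 4.79 ± 0.22 in CHL2 and 4.25 ± 0.19 in wild-type mice, near background (adjusted p = 0.0178). The other 7 neighbours, Grb14, Cobll1, Galnt3, Ttc21b, Gm13629, Scn9a and Scn7a, did not pass.

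**Figure D5:**
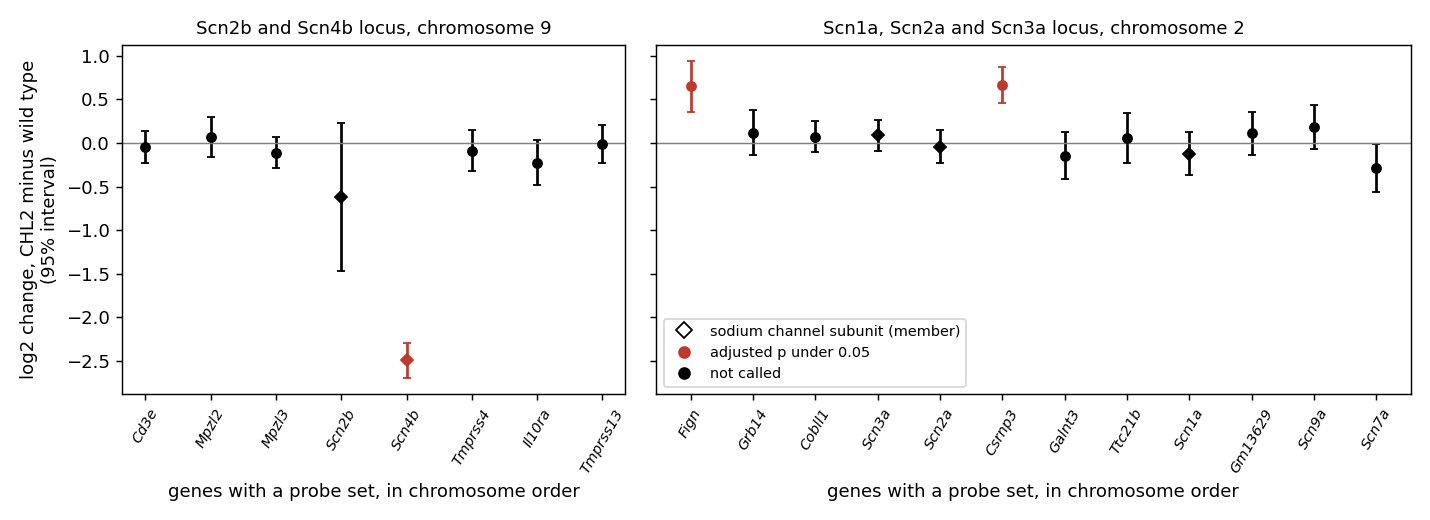
Log2 change (CHL2 minus wild type, 95% interval) of sodium channel members, as diamonds, and of their neighbours with a probe set, in chromosome order at equal spacing. At the Scn2b and Scn4b locus Scn4b alone is called on this plot of brightest probe sets, and at the Scn1a, Scn2a and Scn3a locus Fign and Csrnp3 are.

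The genes whose pattern over the 8 mice was closest to that of Scn4b, by the root mean square difference of log2 values after each gene's mean was removed, were Ddit4l (0.24), Ryr1 (0.25), Rspo1 (0.26), Gpx6 (0.30) and Lrrc10b (0.36). Their log2 changes were -2.36, -2.91, -2.06, -2.90 and -1.90, beside -2.49 for Scn4b. The measure takes in the gap between the groups, so falls of similar size follow from the choice. Ryr1, which encodes a channel that frees calcium stored inside cells, stood at 4.44 ± 0.24 in CHL2 and 7.50 ± 0.25 in wild-type mice, so its mutant values lay under 5, as did those of Rspo1 and Gpx6. Lrrc10b stood at 8.74 ± 0.18 in CHL2 and 10.75 ± 0.11 in wild-type mice (SD, n = 4 each), well above background in both groups.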

How the data were processed

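The authors deposited 1 log2 expression value for each probe set and array, made with RMA in affy per the submitters' processing notes. The sources used here do not name software versions or which arrays were normalized jointly. The RMA step forces the arrays to 1 distribution and compresses changes of dim and very bright probe sets. The table holds 45101 probe sets, of which 64 are controls and stayed out of the fit. The platform annotation pairs 34945 of the 45037 that remain with a single symbol and 932 with several, and does not list 9160. No value was changed and no array left out.

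limma 3.58.1 in R 4.3.3 (lmFit and eBayes, no trend, not robust) was fitted to all probe sets with genotype and recorded sex as terms, since 3 of 4 mutants and 1 of 4 wild-type mice were female. P-values were adjusted over all probe sets by the Benjamini-Hochberg method, with a threshold of 0.05. Changes are CHL2 minus wild type. Because of the sex term, a change need not equal the difference of the group means. In gene lists each gene stood by its brightest probe set, which gave 18193 genes. The 13 lists were other sodium channels, channel partners, beta subunit proteases, sodium pump and exchangers, and markers of medium spiny neurons, neurons in general, interneurons, cortical neurons, astrocytes, oligodendrocytes, their precursors, microglia and endothelium. Single values were tested by exact permutation over 70 assignments of the mice. The fit was tested on simulated data. Members and lists were chosen with earlier results of these data known.

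The rule for named genes took all members, up to 4 genes with the lowest adjusted p among those past the threshold of each list, Htt, Fgf14, Ank3, Bace1, Ppp1r1b, Rbfox3 and a gene not reported here, the 5 genes closest to Scn4b, and 3 neighbours on each side of each locus. Each array is a separate mouse by the labels' numbers.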

Additional observations from a re-analysis of the deposited data

Results flagged for a closer look

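In 44 groups of 4 mice (20 probe sets and 2 control differences in each genotype), 5 had a highest or lowest mouse far from the rest by Dixon's criterion, a gap relative to the group's range, which chance gives in about 1 of 20 groups. Wild-type mouse 170 was the mouse in 4 of them. It was lowest for Scn2b 1430648_at (ratio 0.913) and for Scn8a 1451894_a_at (0.846), and highest for the 3' minus 5' difference of Gapdh (0.984) and of beta-actin (0.949). For Scn2b 1430648_at its log2 value minus the mean of the other 3 wild-type mice was -1.64, and for Scn8a 1451894_a_at -1.21. The part of the control differences in these values was not tested. In the fifth, CHL2 mouse 191 was highest for Scn3b 1435767_at (0.852), at 10.47 against 10.32 to 10.34 in the other mutants.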

How the results depend on the processing

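Scn4b kept its direction and its call in all 21 alternatives run, with log2 changes from -2.78 to -2.47 and adjusted p from 6.12e-10 to 0.00309. It has 1 probe set, so no other could be tried. Its shift against the other 6 members stayed between -3.04 and -1.70, with the direction kept in every case tried. The number of probe sets called, 3019, was 1144 at an adjusted p under 0.01, 1501 without moderation, 1806 with values floored at log2 of 32, 1891 genes with the mean of probe sets, and 652 to 3113 with a mouse left out. The lowest came without CHL2 mouse 191 and 773 without wild-type mouse 161. The number of members called, 2, was 1 when each gene stood by its brightest probe set, 1 to 4 with a mouse left out (1 without CHL2 mouse 191, 4 without wild-type mouse 170), and 4 without mouse 170 and sex. Scn2b as the mean of its probe sets passed (log2 change -0.48, adjusted p = 0.0398). Scn8a 1439889_at passed when sex was left out, also without mouse 161 (-0.46), 191 (-0.47) or 170 (-0.42).

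Members that were not called changed sign in 24 cases, all at adjusted p of 0.789 or more. With a mouse left out and sex kept, Scn1a 1441728_at ran from -0.13 to 0.090, Scn1a 1450120_at from -0.11 to 0.045, Scn2a 1427281_at from -0.023 to 0.16, Scn3a 1421705_at from -0.054 to 0.060, and Scn8a 1457412_at from -0.075 to 0.071. Scn8a 1451894_a_at was 0.033 with sex left out, 0.17 without mouse 161 too and 0.092 without mouse 191 too. In the same fits without sex, Scn3a 1439204_at was -0.039 without 161 and -0.024 without 191, Scn1a 1450120_at 0.010 without 161, and without 170 Scn2a 1427281_at was -0.055 and Scn8a 1457412_at 0.026. With array weights Scn3a 1421705_at was -0.020 and Scn8a 1457412_at 0.045, and Scn2a was 0.015 as a mean of probe sets. The cause of these changes of sign was not tested. The floor left no value for the 3 dim probe sets. The fits without mouse 170 and sex, and the shifts adjusted for sex, were added after seeing the data. No paired analysis was possible because the groups share no mouse number.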

Other observations

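Markers of cells other than neurons were counted against the 9.27% of all genes called in either direction. Of 8 astrocyte genes 1 was higher in CHL2, S100b, which encodes a calcium-binding protein (1.34-fold, adjusted p = 0.0191), and 0 were lower. Of 7 oligodendrocyte genes 1 was lower, the myelin gene Mobp (1.31-fold, adjusted p = 0.0444). Of 6 genes listed for oligodendrocyte precursors, cells that also carry sodium channels, 1 was higher, the transcription factor gene Olig1 (1.35-fold, adjusted p = 0.0329). Which cells gave the Olig1 signal was not tested. The mean level of the precursor list ran from 8.28 to 8.36 in CHL2 and from 8.08 to 8.23 in wild-type mice. Of 8 microglia genes 0 passed in limma (1 at an unadjusted p under 0.05). Of 7 endothelial genes 1 was lower, the cadherin gene Cdh5 (1.36-fold, adjusted p = 0.0413), at values under 5, and the list's mean level ran from 6.05 to 6.22 in CHL2 and from 6.25 to 6.46 in wild-type mice. Each of these calls was lost without CHL2 mouse 191 and without wild-type mouse 161. That of Mobp was also lost without 141, 153, 180 or 200, that of Olig1 without 153, 154 or 200, and that of Cdh5 without 154, 170, 180 or 200, and 1 microglia gene was lower without 180.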
